A study of Mus musculus with 9 samples.

Results

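The genes described here encode the proteasome and the enzymes that attach and remove ubiquitin. They were all genes on the array whose symbol starts with Psma, Psmb, Psmc, Psmd, Psme, Ube2 or Otud, or with Usp followed by a digit, with Psmb8 and Usp9y left out. The array features annotated to such a gene numbered 101 and stood for 75 genes, and 72 of these, with 95 features, had a value on at least 2 of the 3 arrays of every group. Ube2j2, Ube2ql1 and Usp2 did not. The 72 genes were 34 proteasome genes (6 Psma, 9 Psmb, 6 Psmc, 9 Psmd and 4 Psme), 14 Ube2 genes and 24 deubiquitinases (3 Otud and 21 Usp), out of 4775 named genes measured in the same way. Psme3ip1 is counted with Psme by its symbol, although its product binds the activator subunit Psme3 and is not itself a subunit.

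The 9 arrays each held cDNA of a castrated C57BL/6 mouse and of a sham-operated mouse of the same age, labelled with Cy5 and Cy3. The arrays formed 3 groups of 3 mouse pairs: specimens labelled bone marrow from old mice (59 weeks), bone from young mice (17 weeks) and bone marrow from young mice (17 weeks). All castrated animals had been operated on at 7 weeks, both mice of a pair were of 1 strain, and RNA of each specimen came from femur, tibia and humerus together. The description of the design speaks of separating marrow from bone only for the young mice, so the labels do not settle if bone was part of the old specimens, and whether bone and marrow of the young came from the same animals is not stated. The castrated mouse was labelled with Cy5 on 6 arrays and with Cy3 on 3 arrays, 1 per group (old marrow 2, young bone 3 and young marrow 2), which are called swapped arrays below.

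Each value is a log ratio of the 2 channels of an array, read as log2. The base and the direction of the ratio are not given in the sources used here. Because every array is described as castrated against sham, a value above 0 was taken to mean more RNA in the castrated mouse, which is likely and not certain. Every result was therefore also computed with the deposited value taken as Cy5 over Cy3, which turns the sign of the 3 swapped arrays (the channel reading), and on the 6 unswapped arrays, where both readings are the same. As deposited, 8 genes that mark B lymphocytes had a median above 0 on all 9 arrays, between 0.652 and 1.115, swapped arrays included. Values per array numbered 8290 to 10995 and their SD was 0.19 to 0.29 on 8 arrays. The exception was old marrow 1, with an SD of 0.45 and a median of -0.11, so results for old marrow are also given without it. Intensities were not used here, so the level of a gene and its distance from background are unknown, and a lower ratio from fewer cells of a type cannot be told apart from less RNA per cell.

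The proteasome is the large protease that degrades proteins marked with chains of ubiquitin. Its barrel-shaped core is built from rings of Psma products, which gate the entrance, and rings of Psmb products, some of which hold the active sites. Its cap is built from the Psmc ATPases, which unfold substrates, and the Psmd subunits, which bind and trim ubiquitin chains. Psme products are alternative caps, Ube2 products are the E2 enzymes that carry activated ubiquitin to the ligases, and Otud and Usp products are proteases that take ubiquitin off again. Genes of the core and cap are known to be expressed together in many cell types, and bone marrow is rich in dividing and secreting cells that depend on protein turnover.

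The promoters of 5 proteasome genes whose ratios are described below are printed as examples, with start regions read from RefSeq (GRCm38.p6). The genes and the motif marked in each were picked by hand. Each window runs from 250 bases before to 50 bases after the start and is written 5′ to 3′ on the gene's strand. Capitals mark CCAAT boxes on either strand in Psma1 (chr7:114276067-114276366, minus strand), Psma2 (chr13:14612992-14613291, plus strand) and Psma3 (chr12:70974373-70974672, plus strand). In Psmb5 (chr14:54617946-54618245, minus strand) and Psmc6 (chr14:45329574-45329873, plus strand) they mark the core of the antioxidant response element, the site type through which the factor Nfe2l1 is known to drive proteasome genes.
Psma1: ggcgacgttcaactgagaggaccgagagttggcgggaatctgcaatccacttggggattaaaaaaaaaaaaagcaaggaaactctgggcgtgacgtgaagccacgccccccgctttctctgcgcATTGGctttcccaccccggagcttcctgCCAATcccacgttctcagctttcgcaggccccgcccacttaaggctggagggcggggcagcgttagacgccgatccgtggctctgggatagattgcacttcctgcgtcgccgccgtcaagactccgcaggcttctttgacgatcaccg
Psma2: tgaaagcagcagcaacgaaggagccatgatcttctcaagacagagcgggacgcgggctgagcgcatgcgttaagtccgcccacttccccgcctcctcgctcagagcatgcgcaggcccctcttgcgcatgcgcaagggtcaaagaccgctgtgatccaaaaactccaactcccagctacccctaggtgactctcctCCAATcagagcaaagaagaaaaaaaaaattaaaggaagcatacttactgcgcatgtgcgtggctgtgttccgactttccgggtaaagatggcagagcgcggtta
Psma3: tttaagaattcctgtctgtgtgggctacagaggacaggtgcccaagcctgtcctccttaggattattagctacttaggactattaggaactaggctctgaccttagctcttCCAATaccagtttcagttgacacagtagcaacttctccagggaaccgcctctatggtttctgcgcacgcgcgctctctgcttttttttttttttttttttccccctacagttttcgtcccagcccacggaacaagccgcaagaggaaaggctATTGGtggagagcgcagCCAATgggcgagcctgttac
Psmb5: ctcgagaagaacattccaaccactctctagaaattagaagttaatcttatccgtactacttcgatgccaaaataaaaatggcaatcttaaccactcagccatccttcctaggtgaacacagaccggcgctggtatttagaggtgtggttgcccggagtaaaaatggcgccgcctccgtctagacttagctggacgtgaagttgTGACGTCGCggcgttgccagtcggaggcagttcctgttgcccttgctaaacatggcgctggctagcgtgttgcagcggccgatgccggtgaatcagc
Psmc6: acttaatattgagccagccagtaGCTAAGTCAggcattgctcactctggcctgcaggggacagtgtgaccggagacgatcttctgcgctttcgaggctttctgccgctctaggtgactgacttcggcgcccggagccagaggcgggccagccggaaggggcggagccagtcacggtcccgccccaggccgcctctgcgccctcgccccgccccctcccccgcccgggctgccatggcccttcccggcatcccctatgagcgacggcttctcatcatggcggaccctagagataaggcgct

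A promoter window was found for 55 of the 72 genes, 29 of them proteasome genes. Among the Psma genes 5 of 6 (83.3%) had at least 1 CCAAT box, against 14 of the 29 proteasome genes (48.3%) and 41.1% of all 27025 genes with a window. Psma3 held 3 such boxes, Psma1 held 2 and Psma2 held 1. Psma7, whose ratios are described below as the exception of the subfamily, also had a box, and Psma4 did not. A relation of the boxes to the ratios was not tested. The antioxidant response element core (TGACNNNGC, both strands) was in 5 of the 29 proteasome genes (17.2%) and in 14.0% of all genes, with 0 of the 6 Psma genes among them. Such matches describe the letters of the window and show no bound factor.

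None of the 72 genes passed the test in any of the 3 groups, in the average of the groups or in the differences between groups. The test was a moderated linear model (limma) over all 7170 features and named genes, with a common dye term and a Benjamini-Hochberg adjusted p under 0.05. The members called were 0 of 72 in old marrow, where 0.851% of all features were called, 0 of 72 in young bone, where 0.321% were called, and 0 of 72 in young marrow, where 0.739% were called. In the average of the 3 groups the call was again 0 of 72, against 3.91% of all features. For the differences between groups the calls were 0 of 72 each, against 0.0% of all features for old marrow minus young marrow, 0.0% for young bone minus young marrow and 0.0139% for old marrow minus young bone. With the channel reading 0 of 72 members and 0.0% of all features were called in each of these 7 comparisons. The account below is therefore of small ratios, described by their values, their spread and the share of all features that did the same, and no single gene is called changed.

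**Figure D1:**
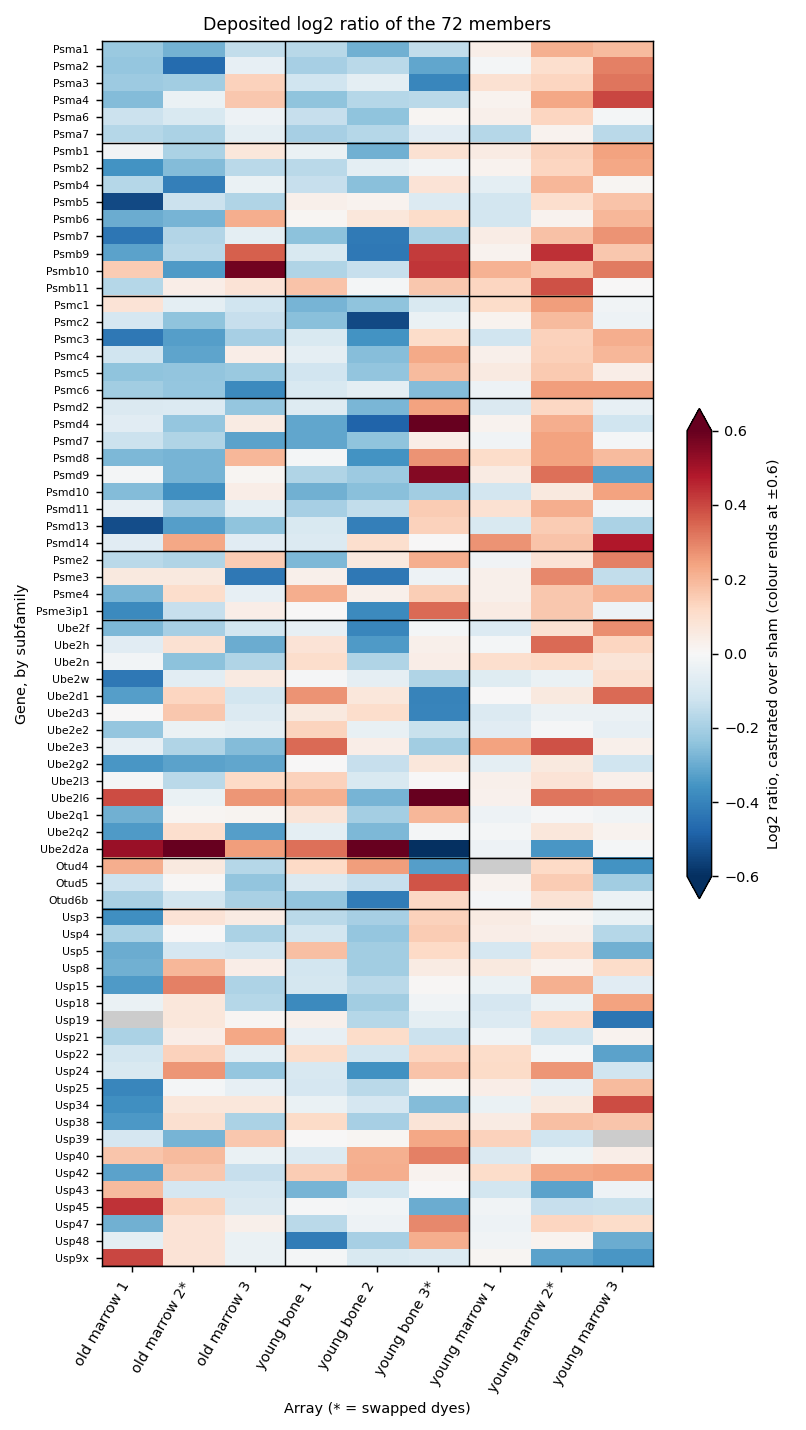
Deposited log2 ratio (castrated over sham) of each of the 72 genes, in rows by subfamily, on each of the 9 arrays, in columns from old marrow through young bone to young marrow, with swapped arrays starred and grey for a missing value. Most proteasome rows are blue (below 0) on old marrow 1 and 2 and on young bone 1 and 2, and red (above 0) on young marrow 2, while the rows of Ube2 and Usp genes are of mixed colour on most arrays.

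Proteasome genes lay below 0 in old marrow and in young bone and above 0 in young marrow. The median over the 34 genes was -0.19, -0.205 and -0.05 on the 3 old marrow arrays, against -0.13, -0.24 and 0.085 in young bone and 0.025, 0.17 and 0.18 in young marrow. Old marrow did not overlap young marrow in this median, whereas young bone did, through the swapped array young bone 3. Taken over gene means, the proteasome median was -0.13 in old marrow (SD of the array medians 0.085), -0.08 in young bone (SD 0.165) and 0.105 in young marrow (SD 0.086, n = 3 arrays each), beside -0.045, -0.003 and -0.01 for all features. Without old marrow 1, the array that stands apart, the old marrow median was still -0.13. The young bone median was -0.025 without young bone 2 and -0.185 without the swapped array young bone 3. The genes below 0 numbered 31, 30 and 20 of 34 on the old marrow arrays and 28, 29 and 13 on the young bone arrays, against 12, 0 and 12 on the young marrow arrays. These counts are not adjusted for the median of all features, which was -0.11 on old marrow 1 and between -0.02 and 0.01 on the other arrays. In old marrow 16 of the 34 (47.1%) were below 0 on every array, against 24.6% of all features, and in young marrow 13 of the 34 (38.2%) were above 0 on every array, against 20.2%.

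The sign of the young marrow median depended on the direction of the ratio, and the old marrow median came close to 0 under the channel reading. Under the channel reading the proteasome median was -0.02 in old marrow (SD of the array medians 0.2) and -0.14 in young bone (SD 0.08), against -0.01 in young marrow (SD 0.174). On the unswapped arrays alone, where both readings are the same, it was -0.11 in old marrow, -0.19 in young bone and 0.058 in young marrow (n = 2 arrays each). The position of young marrow above 0 held as deposited and on the unswapped arrays only.

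**Figure D2:**
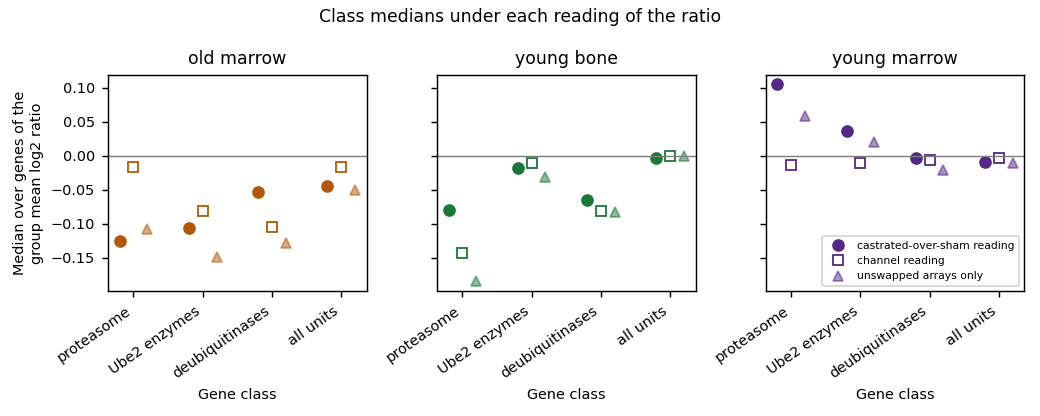
Median over genes of the group mean log2 ratio for proteasome genes, Ube2 enzymes, deubiquitinases and all features (units), with 1 panel per group; circles are the castrated-over-sham reading, open squares the channel reading and triangles the unswapped arrays. The proteasome median in young bone is below 0 in all 3 (-0.08, -0.143 and -0.185), whereas in young marrow it is 0.105 as deposited and -0.013 under the channel reading.

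The Psma subunits, which form the outer rings of the core, were below 0 by their median on every array of old marrow and young bone. Their median was -0.22, -0.2 and -0.04 on the old marrow arrays, against -0.18, -0.17 and -0.155 on the young bone arrays and 0.025, 0.13 and 0.245 on the young marrow arrays. All young bone and old marrow medians were below all young marrow medians. In young bone 5 of the 6 Psma genes (83.3%) were below 0 on every array, against 13.9% of all features. By the channel reading 1 of 6 were, since the swapped array young bone 3 then lies above 0.

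Psma1, an outer-ring subunit, had ratios of -0.225, -0.285 and -0.15 in old marrow, against -0.165, -0.29 and -0.15 in young bone and 0.035, 0.215 and 0.19 in young marrow. Old marrow and young bone covered much the same range, and both lay wholly below young marrow. The fitted difference was -0.37 (SE 0.118, adjusted p = 0.34) for old marrow minus young marrow and -0.35 (SE 0.118, adjusted p = 0.93) for young bone minus young marrow. Psma2 had -0.23, -0.46 and -0.05 in old marrow, against -0.2, -0.16 and -0.31 in young bone and -0.01, 0.1 and 0.3 in young marrow, again with no overlap between young marrow and the other groups. Its average over the groups was the lowest of the Psma genes, at -0.14 (SE 0.057, adjusted p = 0.25).

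Psma3 had -0.22, -0.21 and 0.14 in old marrow, against -0.12, -0.06 and -0.39 in young bone and 0.09, 0.13 and 0.32 in young marrow. Young bone lay below young marrow on every array, and old marrow overlapped it through old marrow 3. The same held for Psma4, with -0.26, -0.04 and 0.16 in old marrow, against -0.24, -0.17 and -0.16 in young bone and 0.02, 0.23 and 0.4 in young marrow. Psma7 was the exception of the subfamily, with -0.17, -0.19 and -0.06 in old marrow, against -0.2, -0.17 and -0.07 in young bone and -0.17, 0.02 and -0.16 in young marrow. It was below 0 on 8 of 9 arrays and its groups overlapped, with an average of -0.12 (SE 0.050, adjusted p = 0.28). Psma6, another outer-ring subunit, had group means of -0.083 in old marrow (SD 0.05), -0.12 in young bone (SD 0.126) and 0.05 in young marrow (SD 0.072).

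**Figure D3:**
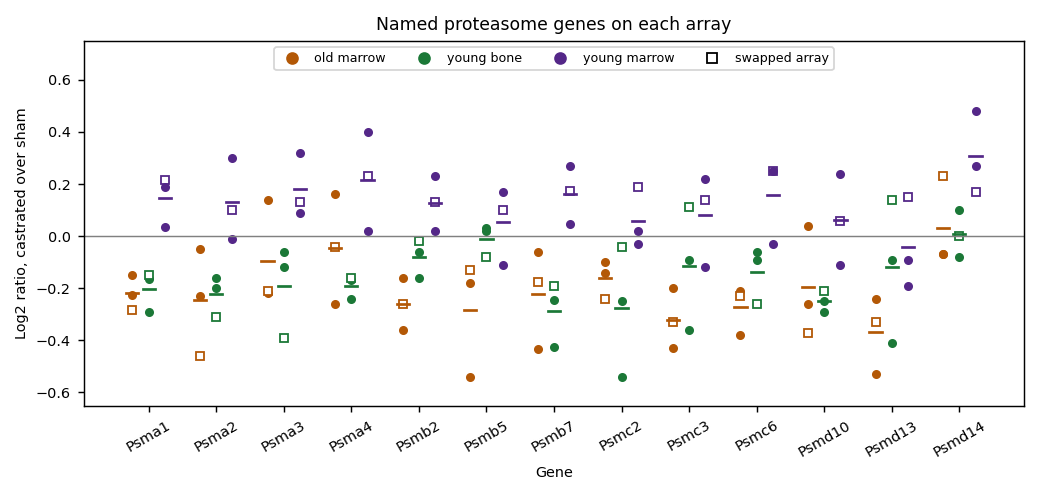
Deposited log2 ratio on each array for 13 proteasome genes, with old marrow, young bone and young marrow from left to right within a gene, bars at the group means and open squares for swapped arrays. For Psma1, Psma2, Psmb2, Psmb7, Psmc2 and Psmc6 every young marrow point is above every old marrow and young bone point, and Psmd14 stands out with all its young marrow points at 0.17 or more.

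Among the Psmb genes, which form the inner rings, the catalytic subunits did not share a pattern. Psmb7, which carries the trypsin-like site, had -0.435, -0.175 and -0.06 in old marrow, against -0.245, -0.425 and -0.19 in young bone and 0.045, 0.175 and 0.27 in young marrow. It did not overlap between young marrow and either other group, and it had the smallest p of all members in young bone, at a fitted ratio of -0.27 (SE 0.1, adjusted p = 0.41). Its fitted difference of young bone minus young marrow was -0.45 (SE 0.138, adjusted p = 0.93). Psmb5, which carries the chymotrypsin-like site, had -0.54, -0.13 and -0.18 in old marrow, against 0.03, 0.02 and -0.08 in young bone and -0.11, 0.1 and 0.17 in young marrow. Old marrow was lowest on every array, by -0.27 relative to young bone in the fit (SE 0.144, adjusted p = 0.68), a value that was -0.145 without old marrow 1. The third catalytic subunit, Psmb6 (caspase-like), averaged -0.12 in old marrow (SD 0.295), 0.063 in young bone (SD 0.05) and 0.037 in young marrow (SD 0.156), with overlapping groups.

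Psmb2, a non-catalytic subunit of the inner ring, had -0.36, -0.26 and -0.16 in old marrow, against -0.16, -0.06 and -0.02 in young bone and 0.02, 0.13 and 0.23 in young marrow. Its groups stood in that order with a single tie, and the fitted difference of old marrow minus young marrow was -0.39 (SE 0.121, adjusted p = 0.34). The immunoproteasome subunits Psmb9 and Psmb10, which replace catalytic subunits in lymphoid cells and under interferon, varied far more between arrays. Psmb10 had 0.15, -0.34 and 0.58 in old marrow, against -0.18, -0.14 and 0.43 in young bone and 0.21, 0.17 and 0.31 in young marrow, so that only young marrow lay on 1 side of 0. Psmb9 ranged from -0.43 to 0.44 over the 9 arrays. Psmb11, known as the thymus-specific subunit, had group means of -0.017 in old marrow (SD 0.134), 0.107 in young bone (SD 0.101) and 0.17 in young marrow (SD 0.193).

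The Psmc ATPases of the cap were below 0 by their median on every old marrow array. Their median was -0.165, -0.24 and -0.17 on the old marrow arrays, against -0.10, -0.25 and 0.035 on the young bone arrays and 0.025, 0.17 and 0.12 on the young marrow arrays. All 6 had a mean below 0 in old marrow and in young bone and above 0 in young marrow. Psmc6 had -0.21, -0.23 and -0.38 in old marrow, against -0.09, -0.06 and -0.26 in young bone and -0.03, 0.25 and 0.25 in young marrow. Its fitted difference of old marrow minus young marrow, -0.43 (SE 0.132, adjusted p = 0.34), had the smallest p of the members in that comparison. Under the channel reading that difference was -0.11 (adjusted p = 1.0).

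Psmc5 was nearly the same on the old marrow arrays, at -0.24, -0.235 and -0.225, against -0.115, -0.235 and 0.19 in young bone and 0.055, 0.155 and 0.04 in young marrow. Psmc3 had -0.43, -0.33 and -0.2 in old marrow, against -0.09, -0.36 and 0.11 in young bone and -0.12, 0.14 and 0.22 in young marrow. Both ATPases lay lower in old marrow than in young marrow on every array and overlapped young bone. Psmc2 was lowest in young bone instead, with -0.1, -0.24 and -0.14 in old marrow, against -0.25, -0.54 and -0.04 in young bone and 0.02, 0.19 and -0.03 in young marrow. Its fitted ratio in young bone was -0.25 (SE 0.1, adjusted p = 0.48), and it was -0.145 without young bone 2 and -0.38 without young bone 3. Psmc1 averaged -0.033 in old marrow (SD 0.103), -0.20 in young bone (SD 0.1) and 0.11 in young marrow (SD 0.135), and Psmc4 averaged -0.13 in old marrow (SD 0.178), -0.028 in young bone (SD 0.241) and 0.125 in young marrow (SD 0.087).

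The Psmd genes, whose products make up the rest of the cap or help to assemble it, held both ratios below 0 and ratios above 0 in young marrow. Psmd13, a structural subunit, had -0.53, -0.33 and -0.24 in old marrow, against -0.09, -0.41 and 0.14 in young bone and -0.09, 0.15 and -0.19 in young marrow. Its fitted ratio in old marrow was -0.33 (SE 0.103, adjusted p = 0.19). Leaving out old marrow 3 gave -0.43 and an adjusted p of 0.027, and leaving out old marrow 1 gave -0.285 and an adjusted p of 0.59. Without old marrow 3, however, 16% of all features were called in old marrow, against 0.851% with all arrays. Psmd10, a chaperone of cap assembly also called gankyrin, had -0.26, -0.37 and 0.04 in old marrow, against -0.29, -0.25 and -0.21 in young bone and -0.11, 0.06 and 0.24 in young marrow. Its SD of 0.04 over the young bone arrays was the smallest among the 6 members with an unadjusted p under 0.05 there.

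Psmd14, the cap's own deubiquitinase, had -0.07, 0.23 and -0.07 in old marrow, against -0.08, 0.1 and 0.0 in young bone and 0.27, 0.17 and 0.48 in young marrow. Young marrow lay wholly above young bone and overlapped old marrow, and the fitted ratio there was 0.31 (SE 0.101, adjusted p = 0.29). It was the only 1 of the 72 members (1.39%, against 10.3% of all features) with an unadjusted p under 0.05 in young marrow, where leaving out old marrow 3 gave 5 members and young marrow 1 gave 3. Over all features the count of 735 became 1010 and 480 in the same order. Psmd4, a receptor for ubiquitin chains, showed the widest spread of the proteasome genes in young bone, at -0.31, -0.48 and 0.62, where the last value is from the swapped array. The remaining Psmd genes (Psmd2, Psmd7, Psmd8, Psmd9 and Psmd11) had means of -0.21 to -0.093 in old marrow, -0.17 to 0.05 in young bone and -0.003 to 0.18 in young marrow.

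The alternative caps differed among themselves. Psme4, a single-chain activator, had -0.27, 0.11 and -0.05 in old marrow, against 0.22, 0.03 and 0.15 in young bone and 0.03, 0.16 and 0.21 in young marrow. It was above 0 on 7 of 9 arrays, with an average of 0.083 (SE 0.056, adjusted p = 0.57) that was 0.044 without old marrow 2. Psme3, the nuclear activator subunit, had 0.06, 0.06 and -0.43 in old marrow, against 0.03, -0.43 and -0.03 in young bone and 0.03, 0.29 and -0.15 in young marrow, with no order among the groups. Psme2, a subunit of the interferon-inducible activator, averaged -0.063 in old marrow (SD 0.185), 0.003 in young bone (SD 0.25) and 0.12 in young marrow (SD 0.164).

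Groups that did not overlap were counted over genes with a value on every array. Old marrow lay below young marrow on every array for 13 of the 34 proteasome genes (38.2%), against 11.7% of all features: Psma1, Psma2, Psma6, Psmb2, Psmb5, Psmb7, Psmc2, Psmc3, Psmc5, Psmc6, Psmd7, Psmd11 and Psmd13. Young bone lay below young marrow for 11 of 34 (32.4%), against 6.89% of all features: Psma1 to Psma4, Psmb2, Psmb7, Psmc1, Psmc2, Psmc6, Psmd10 and Psmd14. The 2 counts share the young marrow arrays. Of the proteasome genes only Psmb5 lay below young bone throughout in old marrow, against 4.71% of all features. The channel reading left 0 of 34 for old marrow below young marrow, against 1.76% of all features, and 1 of 34 (Psmd4) for young bone below young marrow, against 2.93%.

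In the fit, the ratio of old marrow minus young marrow was below 0 for 34 of 34 proteasome genes as deposited, against 58.8% of all features, for 30 of 34 on the unswapped arrays, against 57.5%, and for 16 of 34 under the channel reading, against 51.9%. For young bone minus young marrow it was below 0 for 32 of 34, 32 of 34 and 28 of 34 in the same order, against 49.1%, 49.6% and 49.7% of all features. The second difference thus kept its sign for most proteasome genes under each reading, and the first did not. At an unadjusted p under 0.05, old marrow minus young marrow had 14 of 72 members (19.4%, against 14.7% of all features), 12 of them below 0 (16.7%, against 5.5%), 10 of these proteasome genes. The count of 14 was 3 without young marrow 2, 5 without young marrow 3 and 8 without old marrow 2, and was 22 without old marrow 3. Over all features the count of 1055 moved as well, to 595, 372, 540 and 1977 in the same order. Young bone minus young marrow had 7 of 72 (9.72%, against 4.67%), all below 0 (against 2.96%) and all proteasome genes, 2 without young marrow 2 and 3 without young marrow 3. Over all features the count was 335, and 190 in each of these fits with an array left out. Old marrow minus young bone had 1 of 72 (1.39%, against 6.82%), Ube2g2, and between 0 and 4 with an array left out (243 to 1569 over all features). The channel reading gave counts of 0, 3 and 6 of 72 for these differences in the same order (0%, 4.17% and 8.33%, against 0.697%, 1.48% and 3.85% of all features). The unswapped arrays gave 3, 2 and 3 (4.17%, 2.78% and 4.17%), near the shares of all features (4.88%, 3.31% and 4.02%).

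**Figure D4:**
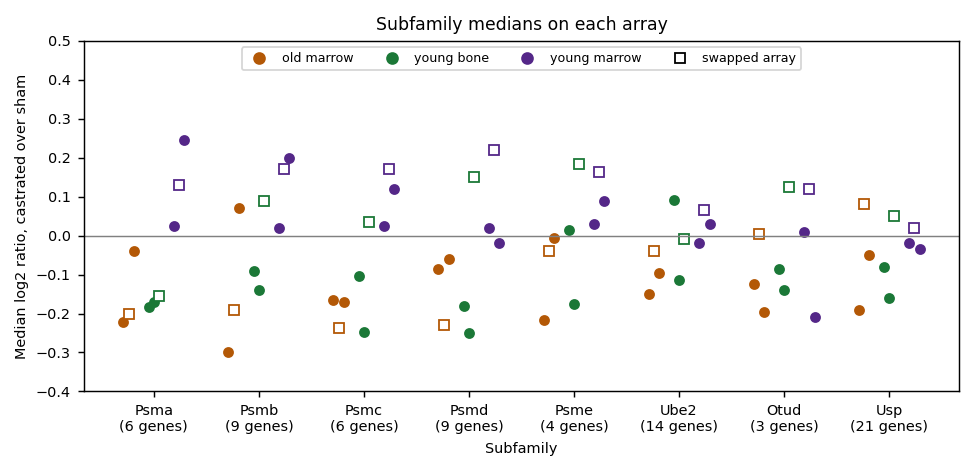
Median log2 ratio of each subfamily on each array, castrated over sham, with old marrow, young bone and young marrow from left to right within a subfamily and open squares for swapped arrays. The Psma, Psmc, Psmd and Psme medians of old marrow lie wholly below those of young marrow, as do the Ube2 medians by a narrower margin. The Psmb, Otud and Usp medians of the groups overlap.

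The proteasome genes also moved together from array to array. The median Pearson correlation between pairs of proteasome genes over the 9 arrays was 0.54, within Psma 0.71, Psmd 0.61, Psmb 0.6, Psmc 0.6 and Psme 0.27, against 0.01 for pairs of all features. It was 0.29 among Ube2 genes and 0.26 among deubiquitinases. Proteasome genes correlated with Ube2 genes at a median of 0.31 and with deubiquitinases at 0.23. The channel reading gave values of 0.5 for the proteasome, 0.3 for Ube2 and 0.07 for deubiquitinases. The proteasome and Ube2 values were thus near those as deposited, whereas that of the deubiquitinases was lower. These are descriptions over 9 arrays that share 3 groups and a dye layout.

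The E2 enzymes followed the proteasome only in part. The median over the 14 Ube2 genes was -0.15, -0.04 and -0.095 on the old marrow arrays, against 0.092, -0.115 and -0.01 in young bone and -0.02, 0.065 and 0.03 in young marrow. The old marrow medians lay below all young marrow medians and overlapped those of young bone. Over gene means the median was -0.11 in old marrow, -0.018 in young bone and 0.037 in young marrow, and the old marrow value was -0.034 without old marrow 1. In old marrow 4 of the 14 (28.6%, against 11.7% of all features) lay below young marrow on every array (Ube2e3, Ube2f, Ube2g2 and Ube2n), and in young bone 0 of 14 did, against 6.89%. The channel reading gave 2 others in old marrow (14.3%, against 1.76%), Ube2d1 and Ube2q2, and 0 in young bone.

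Ube2g2, an E2 of the pathway that clears misfolded proteins from the endoplasmic reticulum, had -0.35, -0.32 and -0.31 in old marrow, against 0.0, -0.14 and 0.07 in young bone and -0.06, 0.06 and -0.12 in young marrow. Old marrow was below both other groups on every array. Its fitted ratio in old marrow was -0.31 (SE 0.081, adjusted p = 0.15), the smallest p of the 72 members in any group. It passed the threshold (adjusted p = 0.047) in a single one of the alternatives run, when old marrow 3 was left out. In that alternative 16% of all features were called in old marrow. Under the channel reading the fitted ratio was -0.076 (adjusted p = 0.96). Ube2f, the E2 for the ubiquitin-like protein Nedd8, averaged -0.19 in old marrow (SD 0.08), -0.15 in young bone (SD 0.209) and 0.097 in young marrow (SD 0.18). Ube2n, which builds the non-degradative chains of immune signalling, averaged -0.15 in old marrow (SD 0.119), -0.012 in young bone (SD 0.149) and 0.098 in young marrow (SD 0.023).

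Ube2l6, the interferon-inducible E2 for the ubiquitin-like protein Isg15, went the other way. It had 0.39, -0.04 and 0.265 in old marrow, against 0.215, -0.28 and 0.635 in young bone and 0.025, 0.32 and 0.31 in young marrow. It was above 0 on 7 of 9 arrays and had the highest average of the Ube2 genes, 0.23 (SE 0.093, adjusted p = 0.25). Without a single array that average ran from 0.10 to 0.36. Ube2h, an E2 known to be induced in red cell precursors, had -0.07, 0.09 and -0.3 in old marrow, against 0.08, -0.34 and 0.03 in young bone and -0.01, 0.34 and 0.13 in young marrow, with overlapping groups.

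The Ube2d genes encode near-identical E2s that serve many ligases, and their features did not measure alike. Ube2d2a, described after its values were seen, had 0.52, 0.68 and 0.25 in old marrow, against 0.33, 0.75 and -0.62 in young bone and -0.03, -0.35 and -0.01 in young marrow, and was the sole member above young marrow on every array in old marrow, where 9.54% of all features were. Of the 3 features annotated to Ube2d3, the first and second correlated with each other at 0.92 and with Ube2d1 at 0.93 and 0.97, while the third correlated with them at -0.26 and -0.32 and with Ube2d2a at 0.8 (9 arrays). The mean over its features therefore mixes 2 patterns, and the values of these paralogs are uncertain. Whether RNA of one paralog bound the features of another was not tested.

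For the deubiquitinases the groups overlapped. The median over the 24 genes was -0.19, 0.075 and -0.073 on the old marrow arrays, against -0.083, -0.15 and 0.062 in young bone and -0.005, 0.025 and -0.04 in young marrow. Over gene means it was -0.053 in old marrow, -0.065 in young bone and -0.003 in young marrow, and the old marrow value was 0.019 without old marrow 1. Old marrow lay below young marrow on every array for 1 of 21 (Otud6b, 4.76%, against 11.7% of all features), and young bone did for 0 of 22, against 6.89%. The channel reading gave 1 of 21 (Usp25) in old marrow, against 1.76%, and 4 of 22 (18.2%, against 2.93%) in young bone, which were Otud6b, Usp3, Usp8 and Usp25. Of the 10 members with an unadjusted p under 0.05 in old marrow (13.9%, against 18.5% of all features), 9 lay below 0 (against 8.98%) and 8 were proteasome genes. The count was 4 without old marrow 1 and 5 without old marrow 2, and over all features it fell from 1324 to 598 and 602. All 6 members at that p in young bone (8.33%, against 8.52% of all features) were proteasome genes below 0, where 4.25% of all features were below 0 at that p. There were 3 without young bone 1 and 1 without young bone 2, while the count over all features went from 611 to 485 and 526. The average of the groups had 4 of 72 (5.56%, against 16.0%), a count that ran from 0 without young bone 1 to 7 without old marrow 3. For all features the average had 1150, and 1064 and 1479 in these fits. Under the channel reading the counts at that p were 4 in old marrow (5.56%, against 2.37% of all features), 8 in young bone (11.1%, against 6.56%) and 0 in young marrow (against 0.781%).

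Otud6b had -0.195, -0.11 and -0.195 in old marrow, against -0.235, -0.42 and 0.125 in young bone and -0.005, 0.085 and -0.035 in young marrow. Usp9x, an X-linked deubiquitinase that stabilises many signalling proteins, had 0.4, 0.08 and -0.04 in old marrow, against -0.01, -0.09 and -0.08 in young bone and 0.01, -0.32 and -0.35 in young marrow. Its fitted ratio in young marrow was -0.24 (SE 0.108, adjusted p = 0.5), and it was -0.155 without young marrow 3. Usp42, which acts on histones and p53, had -0.32, 0.16 and -0.14 in old marrow, against 0.15, 0.22 and 0.02 in young bone and 0.11, 0.23 and 0.24 in young marrow. It was above 0 on every array of the young and on 1 of 3 arrays of the old.

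Usp43 had the lowest average of the Usp genes, -0.11 (SE 0.061, adjusted p = 0.47), and Usp40 the highest, 0.095 (SE 0.057, adjusted p = 0.49). The average of Usp43 was -0.061 without young marrow 2 and -0.17 without young bone 3. Otud5 averaged -0.12 in old marrow (SD 0.12), 0.05 in young bone (SD 0.283) and -0.013 in young marrow (SD 0.182). Usp18, which removes Isg15 and so reverses the work of Ube2l6, averaged -0.047 in old marrow (SD 0.12), -0.20 in young bone (SD 0.18) and 0.033 in young marrow (SD 0.181). Usp45, a deubiquitinase of DNA repair, had a fitted difference of old marrow minus young bone of 0.27 (SE 0.15, adjusted p = 0.68), which rested on 2 features that were 1.36 and -0.49 on old marrow 1. It was 0.143 without that array and 0.427 without old marrow 3. Over all members with several features, 2 features of 1 gene differed by a median of 0.11 on the same array, near the median SD of 0.16 over the arrays of a group.

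Other genes of the ubiquitin system were counted by 7 lists, of which 64 genes were measured, and 0 passed the test in any group or in the average. The lists held E1 enzymes (4 of 9 measured), ubiquitin and ubiquitin-like proteins (4 of 12), proteasome assembly factors and inhibitors (2 of 12), shuttles and segregase (6 of 14), cullin ligases (13 of 22), single-protein ligases (17 of 35) and other deubiquitinases and related proteases (18 of 27). The last list includes Senp1, Senp2, Senp3, Senp5, Senp6 and Senp7, which act on Sumo proteins, and Cops5, which acts on Nedd8. The median of the lists in the average of the groups was -0.041, 0.048, 0.018, 0.003, 0.0, 0.002 and -0.013 in that order, beside -0.003 for all features. In the differences between groups, the list of other deubiquitinases and related proteases was below 0 for 14 of 18 in old marrow minus young marrow (median -0.131, all features -0.057) and for 14 of 18 in young bone minus young marrow (median -0.061, all features 0.003). Cullin ligases were below 0 for 10 of 13 (median -0.147) and 8 of 13 (median -0.10) in the same order. The channel reading gave 12 and 12 of 18 and 8 and 8 of 13. Atg7, the E1-like enzyme of autophagy, came nearest to the threshold, with an average of -0.23 (SE 0.063, adjusted p = 0.08), and its fitted ratio was -0.29 in old marrow and 0.001 in young bone, against -0.41 in young marrow. Tnfaip3, which edits ubiquitin chains to damp inflammatory signalling, averaged 0.15 (SE 0.053, adjusted p = 0.18). Eloc, an adaptor of cullin ligases, averaged -0.14 (SE 0.054, adjusted p = 0.23), and Birc3, a ligase that inhibits cell death, averaged 0.15 (SE 0.061, adjusted p = 0.26). Pomp, the maturation factor of the core, averaged -0.061 (SE 0.048, adjusted p = 0.65).

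Markers of the cell types these specimens could hold were read on the same arrays. B lymphocyte genes (8 of 18 measured) were above 0 on every array by their median, and 7 were called in old marrow, 6 in young bone and 7 in young marrow, all above 0. Granulocyte genes (5 of 14) had a median between -0.65 and -0.25 on all 9 arrays. Skeletal muscle genes (6 of 14) had medians of 1.04, 0.155 and 0.31 in old marrow, against -1.36, -0.195 and -0.6 in young bone and -0.078, 0.04 and -0.09 in young marrow. Osteoblast and bone matrix genes (5 of 14) had -0.33, 0.22 and 0.21 in old marrow, against 0.14, 1.33 and 0.26 in young bone and 0.5, 0.27 and 0.81 in young marrow, and erythroid genes (4 of 12) had 0.125, 0.06 and -0.505 in old marrow, against -0.069, -0.32 and 0.13 in young bone and 0.014, 0.475 and -0.35 in young marrow. The part of these cell types in the proteasome ratios was not tested, and ratios alone do not show whether a labelled tissue holds its defining markers.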

How the data were processed

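Aminoallyl cDNA of each mouse pair was hybridised to a 2-colour array, per the labels' protocols. The authors deposited 1 log ratio per feature and array, read here as log2. The sources used here do not give background treatment, normalization, log base or direction. The deposited columns average within 0.0021 of 0. The table held 11552 features, of which 8050 were annotated to 1 gene, 672 to several and 2830 to none in the platform annotation, and 7880 of the 8050 matched a RefSeq gene by gene ID. Features with a value on at least 2 arrays of each group (8885) were kept. Those of 1 named gene were averaged, which left 7170 rows for the fit.

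Group coefficients and a common dye term were fitted to all 9 arrays with limma 3.58.1 (R 4.3.3), with 5 residual degrees of freedom, prior degrees of freedom of 5.11 and Benjamini-Hochberg adjustment at 0.05. Each replicate is a separate mouse pair, per the labels. Same-numbered arrays of old and young marrow deviated together from their group means (r of 0.61, 0.28 and 0.29). The main fit did not use this as a pairing, and a replicate block was run only as an alternative. The likeness was seen in the data and does not come from shared animals, since the mice differ in age. The labels do not say what a number shares, and both arrays numbered 2 are swapped. Depth does not apply to arrays, and 3 arrays per group limit the precision. The script was tested on simulated data. Alternatives were the channel reading, unswapped arrays, no dye term, median centring, scaling, array weights, complete rows, single features, a replicate block and leaving out each array.

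The members and all lists were chosen with earlier results of these data known. Members were named for a call in any comparison, the 6 smallest p in each group and the average, the extremes of each subfamily, a single sign on 9 arrays (0 members), or the 3 smallest p in each difference. Other members in the text complete their subfamily and were picked after their values were seen.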

Additional observations from a re-analysis of the deposited data

Results flagged for a closer look

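Results were marked where every array of 1 group lay on the other side of 0 from every array of another group. This held for 5 subfamily or class medians, as deposited. Each value below is the mean of the 3 array medians of the first group minus that of the second, and none of these differences was tested. For old marrow minus young marrow the proteasome median differed by -0.272, the Psmc median by -0.296, the Psma median by -0.288 and the Psme median by -0.181. For young bone minus young marrow the Psma median differed by -0.302. The comparisons share the young marrow arrays, and of these arrays young marrow 1 had the medians nearest to 0. Under the channel reading the groups' arrays no longer fall on opposite sides of 0, since the swapped arrays turn sign.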

How the results depend on the processing

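No member changed its call under the channel reading, the unswapped arrays, no dye term, median centring, scaling, complete rows or single features. With array weights, where young marrow 2 had the highest weight (4.36), 9 members were called in young marrow (12.5%, against 18.1% of all features, 1300 features against 53 without weights). They were Psmb9, Psmb11, Psmc1, Psmd14, Ube2e3, Ube2h, Usp9x, Usp42 and Usp43. Their fitted ratios included Psmd14 (0.23), Psmb11 (0.25), Usp42 (0.18), Ube2h (0.185) and Usp9x (-0.20). Leaving out 1 array gave 0 to 2 members called in old marrow and 0 in the other comparisons. The 2 were Psmd13 and Ube2g2 without old marrow 3 (2.78%, against 16% of all features). That fit called 1150 features in old marrow, against 61 with all arrays. The channel reading gave proteasome medians of -0.017 in old marrow and -0.013 in young marrow and a Ube2 median of -0.011 in young marrow. The Ube2 median in old marrow ran from -0.149 to -0.034 with an array left out (-0.034 without old marrow 1), and the cause of these shifts was not tested. Of the values set as main results, 255 were the same and 6 moved. Over the other values, which include single genes and unadjusted counts, 1343 were the same, 88 moved, 7 came to pass the threshold and 0 reversed. A gene was the same if it kept its call and moved by less than the spread. Counts were judged instead by their ratio to the main count. These rules are lenient, since a plain mean of 3 arrays moves by less than their SD when 1 is left out. A count of 0 against 0 is also the same by rule, so the numbers of same values say little about stability. Calls over all features in the average of the groups were 280, against 0 under the channel reading, 70 on the unswapped arrays and 764 with array weights.

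With young bone, same-numbered arrays did not deviate together throughout. Their deviations correlated at -0.04, -0.11 and 0.41 between old marrow and young bone, and at -0.1, -0.37 and -0.06 between young bone and young marrow. With the replicate block, which changed no call of a member, 0 members were called in any of the 7 comparisons, and the calls over all features were 48 in old marrow, 45 in young bone and 65 in young marrow, against 61, 23 and 53 without it. Signal over background is unknown.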

Other observations

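The promoter windows were searched on both strands for 8 motifs: the CCAAT box (CCAAT), the GC box (GGGCGG), the ETS core (CCGGAA), the antioxidant response element core (TGACNNNGC), the cAMP response element (TGACGTCA), the YY1 site (AAGATGGC), the NRF1 palindrome and the interferon response element. Matches of different motifs may overlap, since the antioxidant and cAMP elements both begin with TGAC. The ETS core was in 15 of the 29 proteasome genes with a window (51.7%), 4 of 10 Ube2 genes (40.0%) and 6 of 16 deubiquitinases (37.5%), against 16.7% of all genes. Within the proteasome it was in 4 of 5 Psmc genes and 5 of 8 Psmd genes, but in 1 of 6 Psmb genes. The GC box was in 18 of 29 proteasome genes (62.1%), 9 of 10 Ube2 genes (90.0%) and 13 of 16 deubiquitinases (81.2%), against 38.2% of all genes. The CCAAT box was rarer in deubiquitinases (2 of 16, 12.5%) than in all genes (41.1%). The cAMP response element was in 0 of 29 proteasome genes and 2.03% of all genes, and the interferon response element was in 2 of 29 (6.9%) and 3.99%.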
